A study of Mus musculus with 2 samples.

Results

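Irs4, Calcr and Baiap3 cells were a small group of neurons in the ventral part of the embryonic mouse forebrain, gathered around the midline. A cell counted as a member when it held at least 20 transcripts of the gene panel, when *Irs4*, *Calcr* and *Baiap3* together gave at least 3 counts and at least 3% of its transcripts, and when at least 2 of these genes were counted. The sum also had to be at least as large as that of *Trpc4*, *Onecut2*, *Sp8* and *Pnoc* and as that of *Elfn1*, *Epha6* and *Sertm1*, which mark other neuron groups. By this rule 463 of 156481 cells of at least 20 transcripts (kept cells) were members. They were 95 of 55231 in the control section, or 0.172%, and 368 of 101250 in the KO section, or 0.363%. The 10 genes of the rule chose the cells, so their levels are descriptive.

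*Irs4* encodes an adaptor of the insulin receptor substrate family, which links receptor tyrosine kinases to intracellular signalling. *Calcr* encodes the calcitonin receptor, a G protein-coupled receptor that also binds amylin when paired with receptor activity-modifying proteins, and it is known from neurons of the medial preoptic area that serve parental behaviour. *Baiap3* encodes a relative of the Munc13 priming proteins that acts in the traffic of dense-core vesicles. All 3 genes are known from the hypothalamus, the preoptic area and the amygdala, regions in which neurons releasing peptides, GABA or glutamate lie mixed. In the GRCm39 assembly, *Irs4* lies on the minus strand of chrX:140493994-140508259, *Calcr* on the minus strand of chr6:3685680-3764714 and *Baiap3* on the minus strand of chr17:25461632-25475491, each annotated as protein coding.

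The data came from MERFISH, which reads RNA molecules in place by repeated imaging of barcoded probes, with a panel of 500 genes and 50 blank barcodes that target nothing. One coronal section of an E16.5 embryonic brain was imaged for each genotype, the control carrying *Sst-Cre* and the tdTomato reporter and the KO carrying *Sst-Cre*, tdTomato and a loxP-flanked *Dnmt1*. Both groups thus had Cre and tdTomato, and *Dnmt1*, the DNA methyltransferase, could be deleted solely in cells that had switched on *Sst*. The panel had no probe for *Dnmt1*, and the deletion itself was therefore not measured here. With 1 section per genotype there is no replicate check and no test, and genotype, imaging run and section plane cannot be told apart. The intervals given are exact 95% Poisson or binomial intervals and cover counting error only.

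Depth differed strongly between the sections. Members held a median of 49 transcripts in control tissue and 120 in KO tissue, the other kept cells 34 and 109. Of all segmented cells within 200 µm of a member, 62.0% in control tissue and 96.0% in KO tissue reached 20 transcripts. Blank barcodes made up 0.455% and 0.615% of what members held, and no cell identifier occurred in both sections.

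The members lay deep and medial. Distances are given ventrally from an origin and laterally from a line midway between both sides' centres of *Tbr1*-rich cells. The median ventral position was 1.42 mm in the control section and 1.66 mm in the KO section, which is the percentile 80.5 and 88.8 of all kept cells. The median distance from the line was 0.293 and 0.176 mm. Within 0.5 mm of the line lay 66.3% of control and 95.9% of KO members, against 25.9% and 23.7% of kept cells, so the medial position held in both sections. It was not particular to members. Of the cells of the *Trpc4*, *Onecut2*, *Sp8* and *Pnoc* group 78.5% and 85.7% lay that near, and of cells rich in *Slc17a6* 53.7% and 45.8%.

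**Figure D1:**
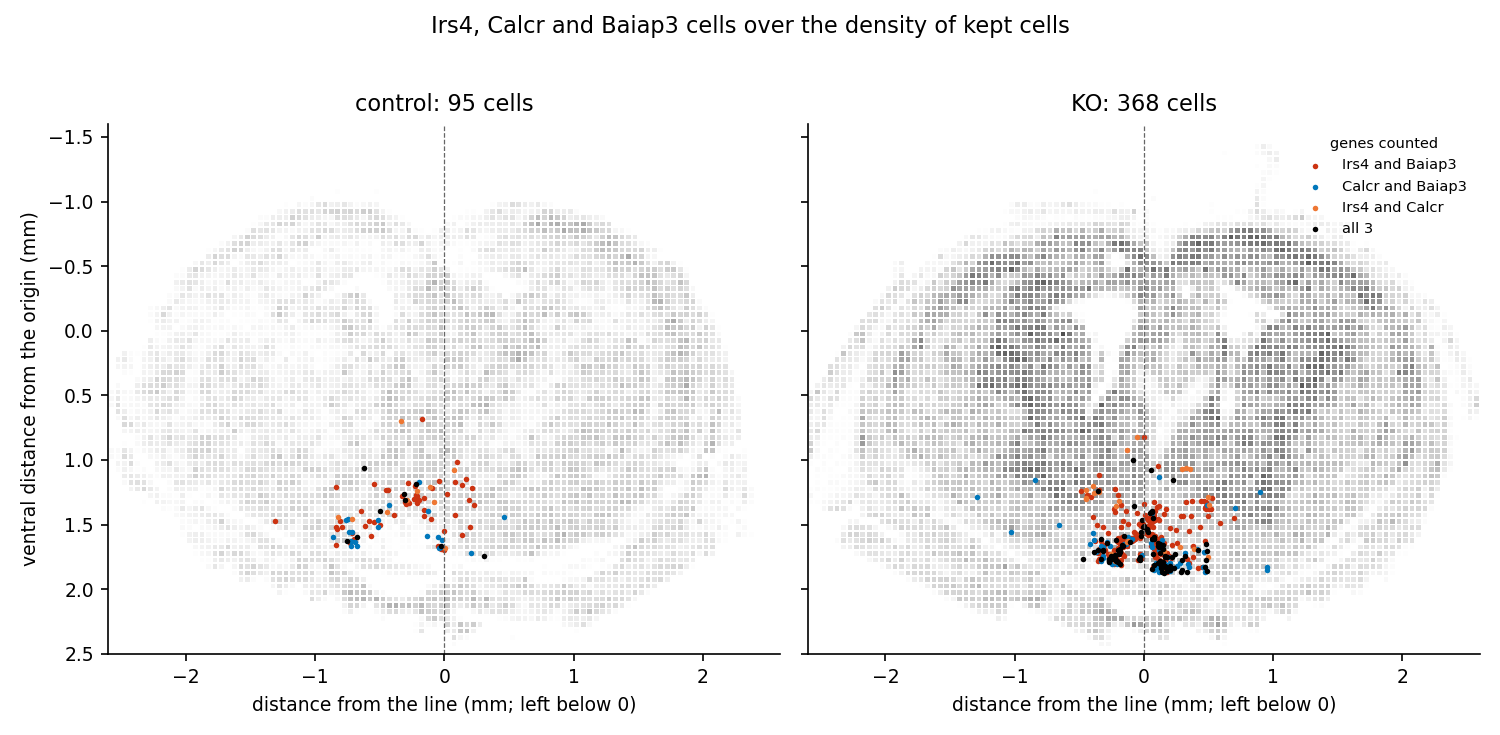
Positions of Irs4, Calcr and Baiap3 cells (coloured by which of the 3 genes were counted) over the density of kept cells (grey), with distance from the line on the horizontal and ventral distance on the vertical axis, both in mm. The 95 control cells lie mainly left of the line, while the 368 KO cells form an arch on both sides of it.

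The control members were lopsided, with 79 left and 16 right of the line, while the KO section had 162 left and 206 right. Left and right are sides of the image and were not matched to anatomical sides. In the ventral zone that holds most members, within 1 mm of the line, they were 1.80% of kept cells on the left and 0.231% on the right of the control section. In the KO section the shares were 2.34% and 2.87%. In the control section the left side of this zone also had fewer cells of at least 20 transcripts, 56.7% against 71.4% on the right, so the side with more members was the shallower one. With a line placed by mirror symmetry of 5 gene maps, the control split was 65 and 30 and the KO split 197 and 171.

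Members neighboured each other. Among the 20 nearest kept cells of a control member 6.68% were members, 38.9 times their share of kept cells, and in the KO section the value was 17.7%, or 48.6 times. The median distance to the nearest other member was 33.6 µm in the control section and 13.6 µm in the KO section. Cells of the *Trpc4*, *Onecut2*, *Sp8* and *Pnoc* group were also common neighbours, at 3.16% against 0.818% of kept cells in the control and 8.83% against 3.87% in the KO section. The *Elfn1*, *Epha6* and *Sertm1* group was scarce around members, at 0.0526% against 0.284% and 0.0815% against 0.276%. Cells rich in *Top2a*, a topoisomerase of dividing cells, were 0.316% and 0.598% of neighbours but 9.38% and 18.2% of kept cells. Cells rich in *Slc17a6* were 1.63% and 0.951% of neighbours, against 0.371% and 0.534% of kept cells. Those rich in *Lhx6* were 3.84% and 2.11%, against 4.29% and 5.30%. Cells rich in *Top2a* were thus scarce around members in both sections. The type of the neighbours outside these groups was not determined.

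Molecules of the 3 genes outside segmented cells were not counted by the rule, but the members were chosen on these same genes. The position of these molecules is therefore a description and no independent check of where members lay. Of the molecules of the 3 genes outside any cell, 66.1% of 1052 (interval 63.1 to 68.9) in the control and 67.4% of 4554 (66.1 to 68.8) in the KO section were within 200 µm of a member. For all other genes the shares were 12.9% and 17.1%. By gene, 80.1% and 70.2% of outside *Irs4* molecules were that near, against 77.9% and 70.8% of all its molecules. For *Calcr* the shares were 70.4% and 76.4%, against 71.0% and 77.2%. For *Baiap3* they were 56.3% and 61.7%, against 57.0% and 64.3%. The share of molecules outside cells was 19.5% and 20.7% for *Irs4*, 14% and 18.9% for *Calcr* and 18.5% and 18.2% for *Baiap3*, against 18.6% and 18.4% for all genes. Members held 9.30% and 10.9% of the *Irs4* counts of all kept cells, 15% and 18.8% of those of *Calcr* and 7.03% and 11.8% of those of *Baiap3*. Most counts of the 3 genes therefore lay in cells that the rule left out.

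The thresholds cut through a continuum, at different places in each section. In the control section 59 of 95 members had a sum of exactly 3, and 140 further cells missed the rule with a sum of 2. In the KO section 74 of 368 had a sum of exactly 3, and the share mattered more, with 163 members between 3% and 4% and 263 further cells between 2% and 3%. The median sum was 3 in control tissue and 5 in KO tissue, and the median share 7.41% and 4.13%.

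*Baiap3* was counted in most members, 89.5% in control tissue and 92.9% in KO tissue. *Irs4* was counted in 77.9% and 80.7%, and *Calcr* in 42.1% and 52.7%. *Irs4* with *Baiap3* was the commonest pair, in 55 control members (57.9%) and 174 KO members (47.3%). *Calcr* with *Baiap3* occurred in 21 (22.1%) and 71 (19.3%), and *Irs4* with *Calcr* in 10 (10.5%) and 26 (7.07%). All 3 genes were counted in 9 (9.47%) and 97 (26.4%), but with every cell thinned to 25 transcripts in 4.55% and 1.63%. The members were chosen on these genes before thinning, and the lower share of the 3 genes in KO members bears on the thinned values, so neither order is read as a difference.

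The pairs were placed differently. Members with *Irs4* and *Baiap3* lay at a median of 0.231 mm from the line in the control section and 0.152 mm in the KO section, those with *Calcr* and *Baiap3* at 0.514 and 0.241 mm. The *Calcr* and *Baiap3* members were also more ventral, at 1.59 mm against 1.34 mm in the control and 1.75 mm against 1.60 mm in the KO section. Members with *Irs4* and *Calcr* were at 1.33 mm in the KO section, less ventral than both other pairs. In the control section they were at 1.32 mm, close to *Irs4* with *Baiap3*, and these 10 cells ranged from 0.695 to 1.68 mm. Thinned to 25 transcripts, 51.1% of control and 78.0% of KO members had fewer than 2 of the 3 genes, so the pairs depend on depth.

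Outside the rule, the members carried a profile of their own against all other kept cells. Levels are counts per 1000000 panel transcripts (CPM) of the summed cells, and a difference of at least 2-fold counts as large. Of 242 genes at or above the panel median, 22 were at least 2-fold higher in members in both sections (9.09%) and 78 at least 2-fold lower (32.2%). The median gene was lower in members, at −0.30 on the log2 scale in control tissue and −0.82 in KO tissue. Every gene of a cell enters its total, and the same cells gave the rule, so these values describe the members and are no test.

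The imprinted genes, expressed from 1 parental copy, were split. *Peg10*, which derives from a retrotransposon, was at 93259 CPM in control members and 95298 CPM in KO members, against 15042 and 10089 CPM in other kept cells, a log2 difference of 2.63 and 3.24. A count of it was found in 87.4% of control and 96.2% of KO members. Thinned to 25 transcripts the shares were 73.9% and 76.4%, against 52.6% and 37.9% of other kept cells within 200 µm. Microglia, which serve as a measure of background over the section, gave 19.6% and 12.1% and had median depths of 52 and 158 transcripts. They lay farther from the line than members, at medians of 1.40 and 1.37 mm, so they give no background for the members' own field. *Dlk1*, a membrane protein related to Notch ligands, was higher by 2.78 and 3.10 on the log2 scale. *Nnat*, a proteolipid of the endoplasmic reticulum, was higher by 1.10 and 0.83, but was at −0.35 in both sections against the other kept cells within 200 µm. *Igf2*, a growth factor abundant in meninges and vessels, was lower, at −3.45 and −4.00. The 4 imprinted genes of the panel, 2 higher and 1 lower by 2-fold in both sections against 9.09% and 32.2% of all genes, had medians of 1.86 and 1.97.

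*Dgkk*, a diacylglycerol kinase, had the largest log2 difference of the named genes in the control section. It was at 4971 CPM in control members and 3597 CPM in KO members, or 3.39 (interval 2.76 to 3.96) and 3.21 (3.0 to 3.41) above other kept cells. *Nxph4*, a neurexophilin that binds neurexins, was higher by 1.92 and 2.88. *Oprl1*, the nociceptin receptor, was higher by 1.52 and 1.81, *Fxyd6*, a regulator of the sodium pump, by 1.47 and 1.57 and *Gabra5*, a GABA-A receptor subunit, by 1.37 and 1.43. *Plcb4*, *Rab3b*, *Chst1*, *Cadm1* and *Grin3a* completed the 12 highest, with log2 differences from 1.0 to 1.64.

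Much of this profile was weaker against the surroundings. Nearby cells that missed the rule belong to that reference. It had *Irs4* at 2750 CPM in the control and 1760 CPM in the KO section, against 493 and 486 CPM in all other kept cells. How far other cell types shared the profile was not tested. Against other kept cells within 200 µm, 8 genes in place of 22 were at least 2-fold higher and 40 in place of 78 at least 2-fold lower in both sections. *Dgkk* kept 1.90 and 2.0, *Peg10* 1.15 and 1.85, *Dlk1* 1.22 and 1.84 and *Nxph4* 1.21 and 2.41. The adhesion protein *Cadm1* was nearly level with its neighbours, at 0.09 and 0.04, and so was the NMDA receptor subunit *Grin3a*, at 0.07 and 0.18.

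**Figure D2:**
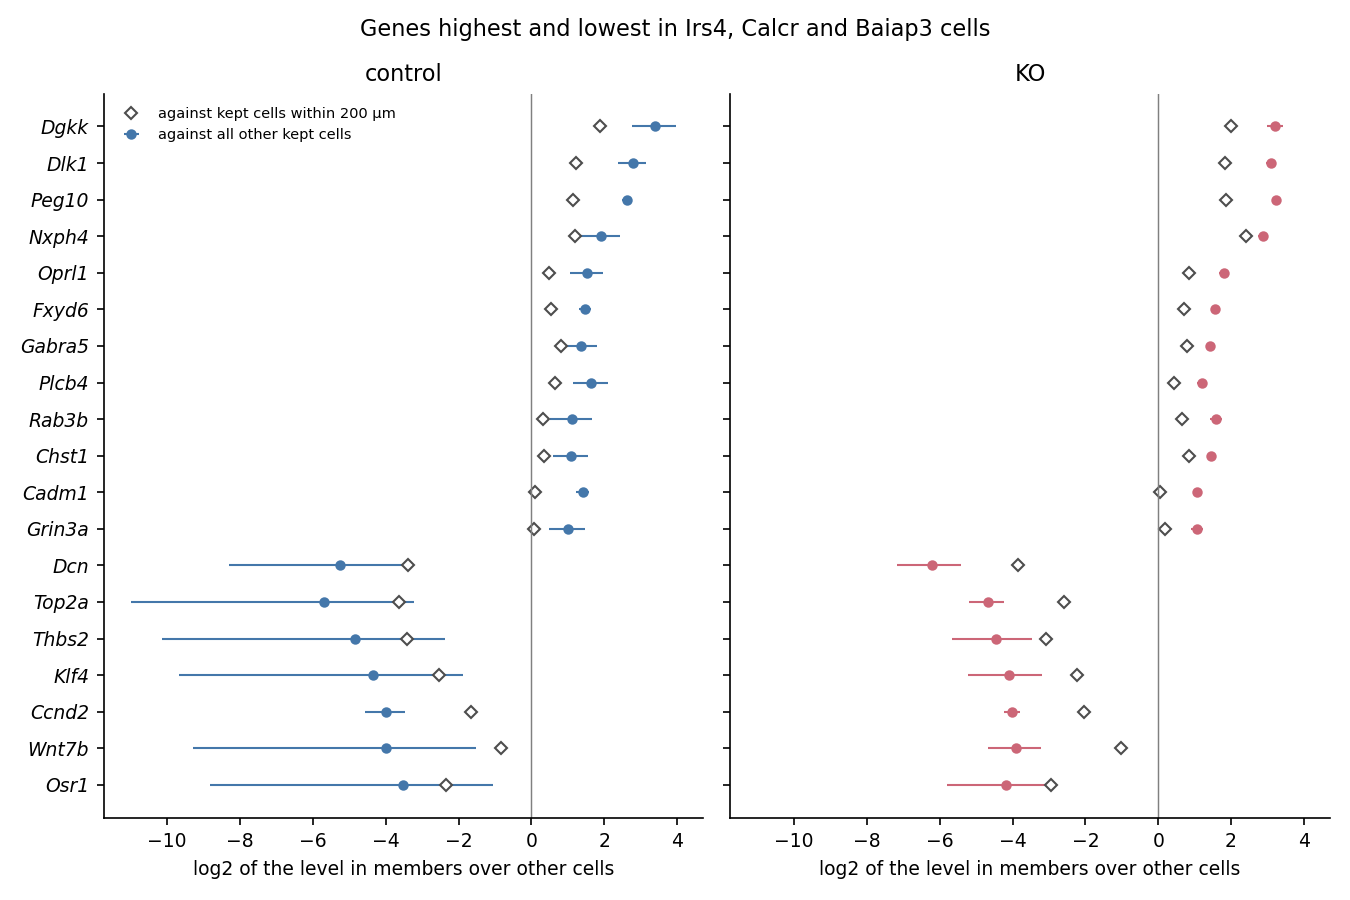
Log2 of the CPM in Irs4, Calcr and Baiap3 cells over other kept cells for 12 of the highest and 7 of the lowest genes, control on the left and KO on the right; filled points with exact 95% Poisson intervals use all other kept cells and open diamonds the other kept cells within 200 µm. The 12 upper genes lie above 0 in both sections and move towards 0 against nearby cells, and the 7 lower genes lie below 0 against both references.

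The lowest genes belonged to other tissues of the section. *Dcn*, a proteoglycan of connective tissue, was at −5.26 and −6.21, and *Thbs2*, a matrix protein, at −4.85 and −4.44. *Top2a* was at −5.69 and −4.69 and the cyclin *Ccnd2* at −3.98 and −4.02. *Klf4*, *Wnt7b* and *Osr1* ranged from −4.36 to −3.53. Of these 7 genes 5 rested on 1 count in control members, with wide intervals.

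The markers of other cell types differed by list, to be read against the 32.2% of genes at or above the panel median that were 2-fold lower in both sections. Of 11 progenitor markers 8 were at least 2-fold lower in both sections, their sum being 10937 CPM in control and 8326 CPM in KO members against 126501 and 92145 CPM in other kept cells. Of 9 meningeal or connective markers 6 were lower, with sums of 6960 and 4163 against 90074 and 64348 CPM. Of 14 striatal markers 5 were lower, with sums of 10738 and 13804 against 49130 and 75085 CPM, and 5 of 8 pallial markers and 5 of 5 mural markers were lower. The mural markers had 3 counts in control members, with 2 of the 5 at 0 and entered at the floor. Of the 11 striatal markers that reached the median level the same 5 were lower. Of 6 markers of interneurons from the medial ganglionic eminence 2 were lower, of 6 oligodendrocyte precursor markers 2 and of 4 endothelial markers 1. Of those that reached the median level the counts were 1 of 5, 2 of 5 and 1 of 3. Of 4 microglial markers 0 were 2-fold lower in both sections, and their sum was 3579 and 913 against 6836 and 4209 CPM. No list of other cell types had a member 2-fold higher in both sections.

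Transmitter genes were mixed. *Slc17a6*, the vesicular glutamate transporter 2, was higher in members by 1.76 and 2.0 on the log2 scale, with 19 counts in control tissue and 335 in KO tissue, and stayed higher against nearby cells, by 0.90 and 1.59. *Gad1*, which makes GABA, differed by 0.51 and 0.17 from all other kept cells and by −0.47 and −0.85 from nearby cells. *Gad2* and the vesicular GABA transporter *Slc32a1* were at 0.34 and 0.02 and at 0.09 and 0.11. *Dlx1*, a homeobox regulator of forebrain GABAergic neurons, was at 0.35 and −0.07, and the neuregulin receptor *Erbb4* at 0.12 and −0.29. Of 10 GABAergic genes 2 were 2-fold lower in both sections and 0 higher. Of the 9 at or above the panel median 1 was lower and 0 higher, against 32.2% and 9.09% of all genes there. The medians of this list were 0.10 and −0.72, against −0.30 and −0.82 over all genes, and its summed level was 30026 CPM in control and 26258 CPM in KO members against 32553 and 37844 CPM in other kept cells. Members thus had more *Slc17a6*, with *Gad1*, *Gad2* and *Slc32a1* near the level of the whole section.

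Thinned to 25 transcripts, *Slc17a6* was counted in 6.82% of 88 control members (interval 2.54 to 14.3) and 14.9% of 368 KO members (11.5 to 19), against 1.38% and 1.69% of microglia. *Gad1* was counted in 27.3% (18.3 to 37.8) and 16.3% (12.7 to 20.5), against 4.75% and 4.08% of microglia. Other kept cells within 200 µm, thinned alike, gave 4.84% and 4.09% for *Slc17a6* and 28.2% and 26.6% for *Gad1*. The *Gad1* share of members was thus near that of their surroundings in control tissue and below it in KO tissue. Without thinning, *Slc17a6* was counted in 16.8% and 50.5% and *Gad1* in 34.7% and 53.8%. Among KO members with *Slc17a6*, *Gad1* was at 5269 CPM, against 11027 CPM in those without, a log2 difference of −1.07 (−1.36 to −0.78). Those with *Slc17a6* held a median of 161.5 transcripts against 100, and the part of this gap was not tested. In the control section the difference was 0.00 (−1.11 to 0.99) over 16 and 79 cells, which 11 and 40 counts could not resolve further.

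*Sst*, whose promoter drives Cre, was counted in 3 of 95 control members, or 3.16% (0.656 to 8.95), and 46 of 368 KO members, or 12.5% (9.30 to 16.3). Thinned to 25 transcripts the shares were 1.14% and 2.99%, against 0.767% and 0.448% of microglia, and without thinning microglia gave 1.14% and 3.95%. The level was 597 CPM in control and 950 CPM in KO members, against 864 and 826 CPM in other kept cells, so it was within 2-fold of theirs in both sections. The share of other kept cells with a count was 2.82% and 5.73%, or 1.88% and 1.55% when thinned. Against these cells the share in KO members was the larger one, while that in control members lay on either side. Other kept cells within 200 µm gave 2.67% and 9.45%, or 1.73% and 2.67% when thinned. The thinned share of KO members was thus near that of their surroundings. It rested on 11 of 368 cells, and its interval included the thinned KO shares of both references, so no enrichment is read from it. *Sst* earlier in their history was not measured here. *Lhx6*, a regulator of interneurons from the medial ganglionic eminence, was at −0.18 in control tissue and −1.32 in KO tissue against other kept cells.

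Of the neuropeptide precursors, *Trh* and *Pdyn* carried most counts. *Trh*, the precursor of thyrotropin-releasing hormone, was at 1193 CPM over 6 counts in control members and 3506 CPM over 192 counts in KO members, log2 differences of 2.66 (1.20 to 3.79) and 3.87 (3.65 to 4.08) from other kept cells. *Pdyn*, the dynorphin precursor, was at 2585 and 3944 CPM, or 2.36 and 2.79 above them. Of 21 precursors 4 were 2-fold higher in both sections, namely *Gal*, *Trh*, *Pdyn* and *Adcyap1*, and 1, *Npy*, 2-fold lower. Of the 4 precursors at or above the panel median, the genes behind the 9.09% higher and 32.2% lower over all genes, 1 was higher and 1 lower. *Gal* with 1 control count had an interval of −4.16 to 3.64 there, and *Adcyap1* with 3 control counts one of −0.94 to 2.90.

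*Th*, the first enzyme of catecholamine synthesis, was at 2585 and 2976 CPM, or 2.96 (2.05 to 3.74) and 3.71 (3.47 to 3.94) above other kept cells. *Slc18a2*, which loads monoamines into vesicles, gave 0 counts in control members and 182.6 CPM in KO members, lower than the 364 CPM of other KO cells. *Ddc*, the next enzyme of the pathway, differed by 1.01 (−2.04 to 2.87) and 0.69 (0.03 to 1.28). So *Th* was high while the vesicular transporter was not. Of 28 monoamine and acetylcholine genes 3 were 2-fold higher in both sections and 2 lower, and 15 had no count in control members. Of the 8 at or above the panel median 0 were higher and 2 lower, against 9.09% and 32.2% of all genes there.

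Peptide receptors gave 7 of 33 genes 2-fold higher in both sections and 2 lower. Most were sparse, and of the 5 at or above the panel median 1 was higher and 2 lower, against 9.09% and 32.2% of all genes there. *Oprd1*, the delta opioid receptor, had 5 control and 33 KO counts, with log2 differences of 3.30 (1.66 to 4.54) and 2.16 (1.62 to 2.66), whereas *Cckbr*, a cholecystokinin receptor, had 1 and 42 counts, with 1.17 (−4.14 to 3.67) and 3.06 (2.58 to 3.5). Hormone receptors were near the floor in control members. The oestrogen receptor *Esr1* had 1 and 9 counts, the progesterone receptor *Pgr* 0 and 13 and the prolactin receptor *Prlr* 1 and 51. The retinoid receptor *Rxrg*, a striatal marker, was lower than in other kept cells, at −1.47 and −1.59 on the log2 scale.

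Of 10 hypothalamic, preoptic and amygdalar regulators on the panel, 1 was 2-fold higher in both sections and 4 lower. Of those that reached the median level 0 of 8 were higher and 4 lower, against 9.09% and 32.2% of all genes there. *Fezf1*, a forebrain zinc finger regulator, was higher by 2.16 (1.03 to 3.09) and 1.49 (0.97 to 1.96). *Fezf2*, *Pou3f2*, *Meis2* and *Bcl11b* were lower, *Meis2* at −3.25 and −4.00. *Isl1*, a LIM homeodomain regulator, was at −0.67 (−2.29 to 0.56) and −0.40 (−0.66 to −0.14). *Tbr1*, a regulator of pallial glutamatergic neurons, was near the section's level, at 0.12 and −0.32, but above that of cells within 200 µm, by 1.09 and 1.07. Several defining regulators of the hypothalamus in this list are not on the panel, so within the ventral forebrain the region was not checked by them.

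In axon guidance and adhesion 0 of 12 genes were 2-fold higher and 2 lower, in ion channels 1 of 9 higher and 2 lower, and in insulin and IGF signalling 0 of 3 higher and 2 lower. At or above the panel median these lists had 10, 6 and 3 genes with the same numbers higher and lower, to be read against the 9.09% and 32.2% there. The insulin-like growth factor receptor *Igf1r*, which signals through adaptors of the kind *Irs4* encodes, was close to other kept cells, at −0.26 and −0.17, while the binding protein *Igfbp5* was at −2.44 and −1.36. Among the guidance genes, the semaphorin receptor *Nrp1* was at 1.20 and 0.79 and the netrin receptor *Unc5d* at 1.57 and 0.53. *Nrp2* was at −0.27 and −0.29, the cadherin *Cdh13* at −0.83 and 0.02 and the surface protein *Cd24a* at −0.32 and −0.69. Of the channels, *Kcnk2*, a leak potassium channel, was at −0.02 and 0.26 and the kainate receptor subunit *Grik1* at 0.89 and 0.29. The cortical regulator *Cux2* was at 0.06 and −0.32.

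Members differed from each other by place. In the KO section 94 members lay within 0.1 mm of the line and 274 farther away, with median depths of 160 and 114 transcripts. This band was chosen after the positions had been seen. Of 128 genes with at least 60 counts in KO members, 11 were at least 2-fold higher near the line (8.59%) and 26 at least 2-fold lower (20.3%).

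*Trh* differed most among the genes higher near the line. It was at 8231 CPM near the line and 1149 CPM farther away, a log2 difference of 2.84 (2.34 to 3.37), with 150 of its 192 counts in the band. *Nxph4* was at 17669 against 3585 CPM, or 2.30 (2.0 to 2.61), and *Dgkk* at 6749 against 2025 CPM, or 1.74 (1.31 to 2.17). *Nos1*, the neuronal nitric oxide synthase, was at 4006 against 1231 CPM, or 1.70 (1.15 to 2.27), and *Ngb*, neuroglobin, an oxygen-binding protein of neurons, at 1.72. *Cbln2*, a synaptic organiser, and *Syt10*, a synaptotagmin, followed at 1.36 and 1.31. With the line placed by mirror symmetry all 11 genes stayed above 0, but the differences were smaller. *Trh* was then at 1.99, *Nxph4* at 1.63, *Dgkk* at 1.31 and *Ngb* at 1.20, while *Syt10* at 0.84, *Nos1* at 0.83, *Cobll1* at 0.63 (−0.05 to 1.33) and *Cbln2* at 0.55 were below 2-fold.

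Lower near the line were *Meis2*, at 165 against 4297 CPM, or −4.71 (−7.00 to −3.13), *Pou3f2* at −2.64 and *Lhx6* at −2.21. *Calcr*, a gene of the rule, was at 3073 against 13574 CPM, or −2.14, while *Irs4* was at 0.39 and *Baiap3* at 0.25. *Gad1* was at −1.16 (−1.54 to −0.79). *C1ql2* was at −1.56 (−2.19 to −0.97), but at 0.17 (−0.26 to 0.59) with the line of mirror symmetry. The cells near the line thus had more *Trh* and *Nxph4* and less *Gad1* and *Meis2* than the others, and the *Calcr* values, bound by the rule, are a description.

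**Figure D3:**
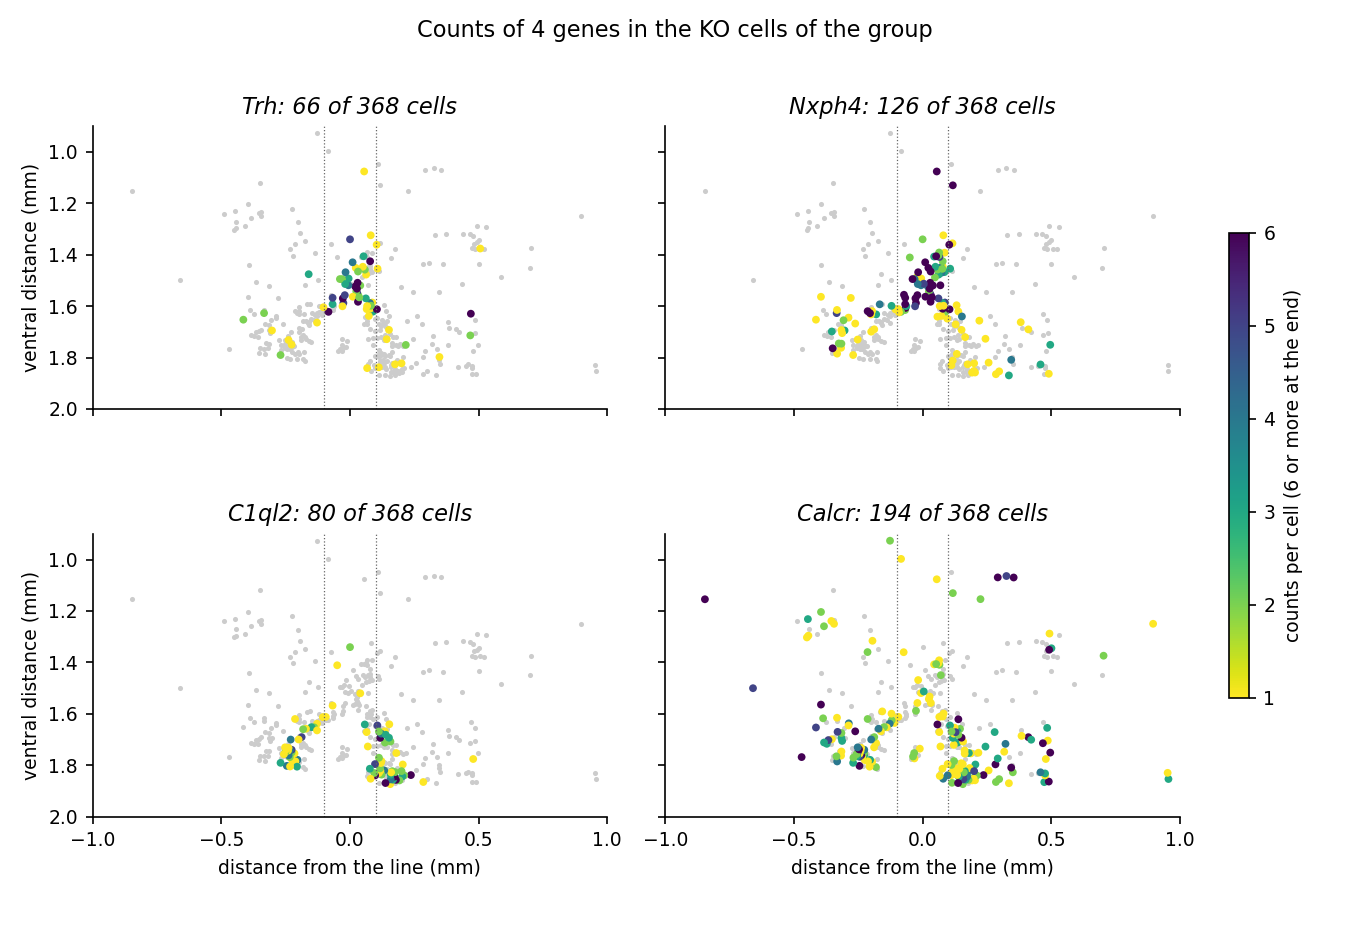
Counts per cell of *Trh*, *Nxph4*, *C1ql2* and *Calcr* in the 368 KO cells of the group, with distance from the line and ventral distance in mm; grey points had no count, colours run from 1 to 6 or more, and dotted lines mark 0.1 mm from the line. *Trh* (66 cells) and *Nxph4* (126 cells) gather at the top of the arch near the line, *C1ql2* (80 cells) at its ventral ends.

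The genes of the arch also kept company cell by cell. In the 66 KO members with *Trh*, *Nxph4* was at 17742 CPM against 4341 CPM in the other 302, a log2 difference of 2.03 (1.75 to 2.31), and *Dgkk* was higher by 1.61. *Th* and *C1ql2* were lower in these cells, at −1.41 and −2.01. *C1ql2*, a secreted synaptic protein of the C1q family, was counted in 80 KO members, whose median ventral position was 1.76 mm against 1.62 mm for the others. In them *Pdyn* was higher by 1.42 and *Nxph4* lower, at −1.36, and *Calcr*, bound by the rule, was at 17905 against 8074 CPM. *Pdyn* was also higher in members with *Th*, by 1.22. Members with *Trh* held a median of 217.5 transcripts against 110.5, a gap whose part in these values was not tested, while those with *C1ql2* held 118 against 122.

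The control section gave little on this pattern. It had 18 members within 0.1 mm of the line, with 1 of 6 *Trh* counts and 0 of 29 *Nxph4* counts among them, while *Nxph4* was higher near the line of mirror symmetry, at 0.80 on the log2 scale. By cell, 5 control members with *Trh* held 8 of the 29 *Nxph4* counts, a log2 difference of 3.0 (1.62 to 4.24) from the other 90.

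Grouped by the 3 genes, the 5 genes that differed most in the same direction in both sections between members with and without *Calcr* were *Nxph4*, at −1.27 in control tissue and −0.81 in KO tissue, *Adgrl2* at −1.08 and −0.72, *Rasgrf2* at −0.73 and −0.41, *Tshz1* at 1.02 and 0.47 and *Gad1* at 0.44 and 0.43. They were ranked by the smaller of both values, between cells split on a gene of the rule, so these differences are a description. The control values were loose, with counting intervals from −2.74 to 0.01 for *Nxph4* and from −0.41 to 1.29 for *Gad1*. *Gad2*, the other GABA-producing enzyme, lay on the opposite side from *Gad1*, at −1.38 (−3.18 to 0.12) and −0.39 (−0.72 to −0.05).

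The share of members was 2.11 times as large in the KO as in the control section (1.68 to 2.68). This ratio depended on depth and varied with the side. With the KO counts thinned by 1 fraction to the control depth it was 0.779, with an interval that included 1 (0.572 to 1.06), and with every cell thinned to 25 transcripts 0.555 (0.325 to 0.956). The value of 0.555 rested on 27 control and 34 KO cells of 1 random draw. A sum of 3 in 25 transcripts also asks for a larger share than 3%, and the median share was 7.41% in control and 4.13% in KO members. No difference is read from it. Between the left image sides of both sections it was 1.01, and between the right image sides 7.69. These sides need not be the same anatomical side.

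**Figure D4:**
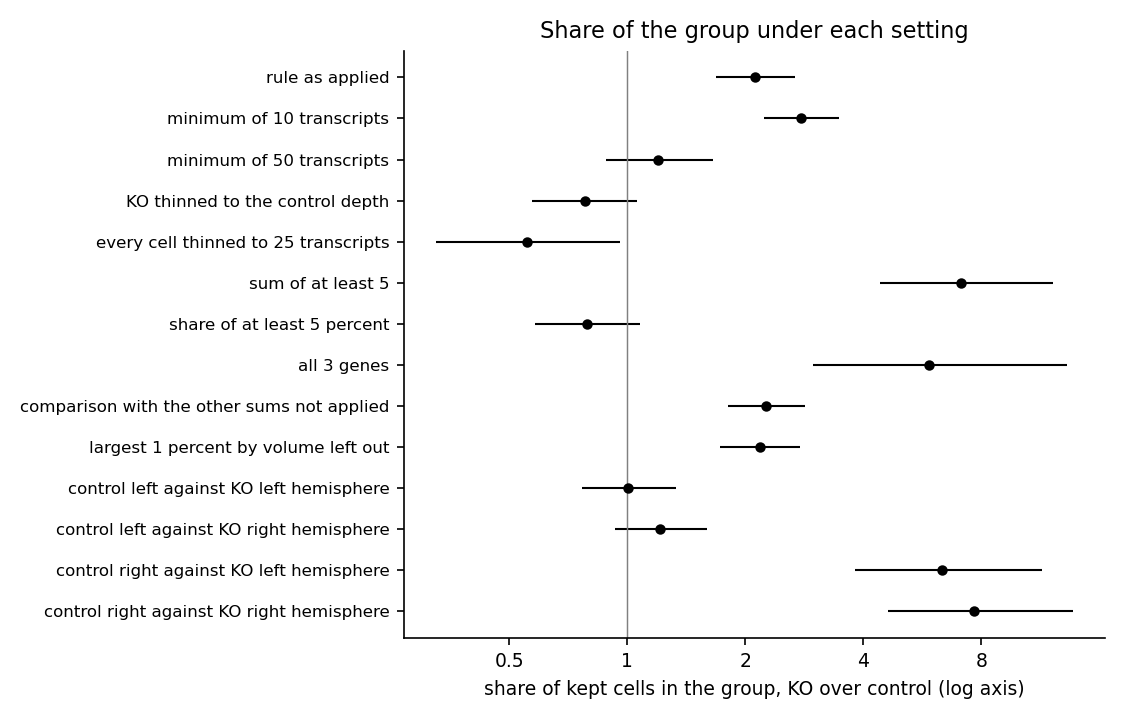
Share of kept cells that were Irs4, Calcr and Baiap3 cells, KO over control (log axis), under the rule as applied and 13 other settings, with exact 95% intervals. The ratio runs from 0.555 with every cell thinned to 25 transcripts to 7.69 between right image sides (labelled hemispheres), and lies on both sides of 1.

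Gene levels within members were then set side by side between the sections. Of 242 genes at or above the median level in members, 38 were at least 2-fold higher in the KO (15.7%) and 38 at least 2-fold lower (15.7%), with a median of 0.14 on the log2 scale. The other kept cells within 200 µm had a median of 0.23 over the same genes. An interval that left out 0 was found for 13 of the higher and 19 of the lower genes. In nearby cells all 13 and 16 of the 19 lay on the same side of 0, and 5 and 2 of them differed by 2-fold. The share of all 242 genes on each side of 0, or at 2-fold, in nearby cells is not given here. The nearby median was itself above 0, and the intervals were set gene by gene without correction for 242 genes. These counts are therefore a description.

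*C1ql2* had the largest ratio of the genes counted in both sections, with 2 counts in control and 193 in KO members, 398 against 3524 CPM or 3.15 on the log2 scale (1.28 to 6.2), and 0.25 in nearby cells. *Syt10* had 2 and 121 counts, or 2.47 (0.59 to 5.54), and 0.76 in nearby cells. *Arhgap36*, an inhibitor of protein kinase A, had 2 and 100 counts, or 2.20 (0.31 to 5.26). For *Epha3*, *Prlr*, *Camk4*, *Pde1a*, *Cckbr*, *Calb1* and *Qpct*, each with 1 control count, ratios from 1.84 to 2.49 had intervals that included 0. *Trh* was at 1.56 (0.41 to 3.02) and 0.17 in nearby cells, and *Trh*, *Syt10* and *C1ql2* are among the genes that varied by place within the KO members.

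Lower in KO members were *Grm8*, a metabotropic glutamate receptor, with 6 and 9 counts or −2.86 (−4.51 to −1.09), *Nkx6-1*, a homeodomain regulator, with 5 and 8 counts or −2.77 (−4.56 to −0.81), and the adrenergic receptor *Adra2a*, with 12 and 22 counts or −2.57 (−3.65 to −1.42). Blank barcodes made up 0.615% of what KO members held, and whether 9 and 8 KO counts stand above that background was not tested. *Nxph1* was at −2.37 (−3.52 to −1.12), against −0.02 in nearby cells, and *Lhx6* at −1.28 (−1.95 to −0.56), against 0.16. *Mrc1*, *Csf1r* and *Cldn5*, which mark macrophages, microglia and endothelium, were lower too, at −2.35, −2.27 and −2.27. Nearby cells were at −1.70, −0.54 and 0.25. All 12 *Cldn5* counts of control members lay in 1 of the 95 cells, so its ratio rests on that cell. The microglial sum in members was 3579 CPM in the control and 913 CPM in the KO section. The summed mural markers, at 597 and 1315 CPM, rested on 3 counts in control members, so no direction is read from them. The summed endothelial markers were at 2784 and 1443 CPM and the meningeal ones at 6960 and 4163 CPM. Of the 14 endothelial counts in control members 12 were the *Cldn5* counts of 1 cell, so no direction is read from the endothelial sum. The part of these markers in the other ratios was not tested. *Mc4r*, a melanocortin receptor, was at −2.27 and *Sncg*, gamma-synuclein, at −2.08.

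By list, 5 of the 11 peptide receptors at or above the median in members were at least 2-fold lower in the KO section and 2 higher, with a median of −0.72 against 0.14 over all 242 genes. Genes entered by their mean level over both sections, so a sparse gene could pass through the section where it was high. *Mc4r* had 4 control and 9 KO counts and *Cckbr* 1 and 42, so these counts by list are a description. Over all genes 15.7% were higher and 15.7% lower, and the other lists below, with few genes each, are to be read against these shares. Of 8 guidance and adhesion genes 3 were higher, *Epha3*, *Cdh13* and *Cd24a*, and 0 lower, with a median of 0.35. *Cd24a* was at 1.78 (1.20 to 2.43) in members and 1.79 in nearby cells, so its difference was not limited to the group. Of 8 GABAergic genes 0 were higher and 2, *Lhx6* and *Prox1*, lower, with a median of 0.13, and of 8 monoamine and acetylcholine genes 0 were higher and 2, *Adra2a* and *Chrm2*, lower. *Trh* was the 1 of 5 peptide precursors that was higher, and none was lower.

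Several genes that were higher in members of both sections were within 2-fold of each other between the sections, while *Trh*, at 1.56, and *Fezf1*, at −1.44 (−2.53 to −0.21), were not. *Peg10* was at 0.03 (−0.11 to 0.17), *Dlk1* at −0.38 (−0.77 to 0.04), *Dgkk* at −0.47 (−1.07 to 0.20), *Th* at 0.20 (−0.61 to 1.14) and *Nxph4* at 0.52 (−0.02 to 1.12). The cells nearby had *Peg10* at −0.68 and *Dlk1* at −1.0. *Irs4*, *Calcr* and *Baiap3* themselves, bound by the rule, were at −0.68, −0.66 and −0.67.

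**Figure D5:**
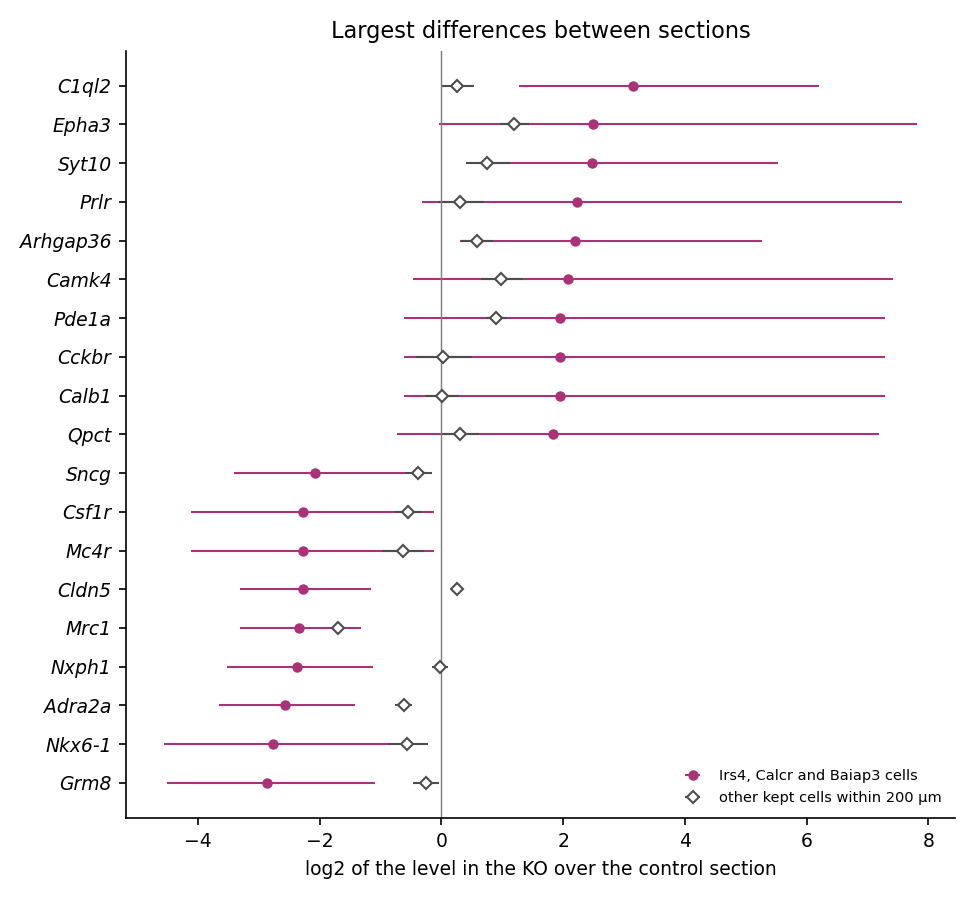
Log2 of the CPM in the KO over the control section for 10 of the highest and 9 of the lowest genes, in Irs4, Calcr and Baiap3 cells (filled points) and in other kept cells within 200 µm (open diamonds), with exact 95% Poisson intervals. Intervals of the upper genes are wide because control members had 1 or 2 counts of each, and most diamonds lie nearer to 0.

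The members were set against other groups gene by gene, and no similarity of whole profiles was computed. Against the 452 control and 3922 KO cells of the *Trpc4*, *Onecut2*, *Sp8* and *Pnoc* group, which lay less ventrally, members had more *Dgkk* (3.11 and 2.77), *Th* (2.41 and 3.72), *Nxph4* (1.94 and 3.68) and *Peg10* (1.69 and 2.10) and less *Gad1* (−0.62 and −1.09). Against the 157 and 279 *Elfn1*, *Epha6* and *Sertm1* cells, members had more *Dlk1* (6.90 and 5.09) and *Peg10* (3.47 and 4.57) and less *Sst* (−3.31 and −1.56). The control values of *Dlk1* and *Sst* rested on few counts, with intervals from 4.36 to 12.2 and from −5.6 to −1.7. Against the 205 and 541 cells rich in *Slc17a6*, *Nxph4* differed by −0.48 (−1.16 to 0.16) and 0.02 (−0.18 to 0.22), while *Peg10* (2.47 and 4.06) and *Gad1* (1.69 and 2.42) were higher in members. The cells rich in *Slc17a6* lay far less ventrally than members, at medians of 0.330 and −0.023 mm.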

How the data were processed

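The authors imaged each section on a MERSCOPE instrument and deposited, per section, a table of whole-number counts per segmented cell and panel gene, with blank barcodes, a table of cell positions and volumes and a list of decoded molecules with their coordinates, in units the headers do not name. The segmentation model is not given in the sources used here. No per-sample column was left unused (0).

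From these counts, cells of at least 20 transcripts were kept. Members were found by the rule above, and their counts were summed and scaled to CPM. Intervals were exact Poisson (ratios by the conditional binomial) and Clopper-Pearson, at 95%. A list member with no counts was entered at a floor of 3 counts. No doublet caller was run. The settings tried were other minima and rule thresholds, thinning (seed 1), cells within 200 µm, image sides, the imaging plane and the line.

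The named genes were those of the rule, list members with at least 100 counts in members, and the largest differences (12 highest with at least 20 counts and 8 lowest against other cells, 10 each way between sections, 5 between combinations with at least 10 counts in each section). *Oprd1*, *Cckbr*, *Gal*, *Adcyap1*, *Esr1*, *Pgr*, *Slc18a2*, *Ddc* and *Fezf1*, the genes by distance from the line and the pairs were named after their values had been seen. Some genes are not reported here. The members and lists were chosen with earlier results of these data known. The code was tested on simulated data. Python 3.11.15, NumPy 2.4.6, SciPy 1.17.1, pandas 2.3.3 and matplotlib 3.10.9 were used. Gene positions came from GENCODE. Decoding used no genome.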

Additional observations from a re-analysis of the deposited data

How the results depend on the processing

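The KO to control ratio of the share of members depended most on the settings. Against 2.11 as reported, it was 2.77 with a minimum of 10 transcripts, 1.20 with 50, 0.779 with the KO thinned to the control depth, 0.555 with every cell thinned to 25 transcripts, 7.12 with a sum of at least 5, 0.789 with a share of at least 5% and 5.88 with all 3 genes. By image side it was 1.01 (left against left), 1.22 (control left, KO right), 6.37 (control right, KO left) and 7.69 (right against right). Position moved less: the control share left of the line was 83.2%, or 68.4% by mirror symmetry, the KO share 44.0%, or 53.5% by mirror symmetry and 35.8% when thinned, and 55.6% of control members were within 0.5 mm of the line with a sum of at least 5.

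Thinned to 25 transcripts, the control shares of *Irs4* with *Baiap3* and *Calcr* with *Baiap3* were 25% and 12.5%, the KO shares 10.9% and 6.25%, with 3.26% for *Irs4* with *Calcr* and 1.63% for all 3, and the KO *Sst* share was 2.99%. In 1 imaging plane, 63.9% of KO molecules of the 3 genes outside cells were within 200 µm of a member. Against cells within 200 µm, 8 genes were higher and 40 lower in both sections. Between sections, 70 genes were lower over all genes with a count, 22 higher and 60 lower for control right against KO left, and 62 lower for control right against KO right. *C1ql2* near the line was 0.17 by mirror symmetry, against −1.56 with the line as reported. The cause was not tested. Of 491 values under other settings, 50 of the summary values stayed within the counting interval or the margin set, 26 moved and 3 changed side. Of those of single genes 321 stayed, 90 moved and 1 changed side.

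No paired analysis was possible because each genotype had 1 section. Leaving out a replicate was likewise not possible. Depth limits the control section: 95 members held 5029 transcripts, and 41 of 242 genes had no count in them.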
